A study of Mus musculus with 8 samples.

Results

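Vitamin A reaches skin as retinol and is held there by a small set of uptake, binding and metabolic proteins, and 9 of their genes were followed here in mouse epidermis with and without the nuclear receptor gene *Rora*. They were *Isx*, *Scarb1*, *Crabp2*, *Dhrs9*, *Rdh10*, *Aldh1a1*, *Aldh1a3*, *Cyp26b1* and *Lrat*, 9 of the 55416 genes in the deposited table. *Isx* was chosen by its measured values, since it had no counts in the control libraries and counts in the knockout libraries, and the other 8 were selected as retinoid handling genes with earlier results of these data in view. The *Isx* values are therefore given as a description without a test. The back epidermis of mice at postnatal day 4 was sequenced in 4 RoraEKO libraries and in 4 control libraries labelled WT. RoraEKO mice carried floxed *Rora* alleles and a Cre transgene driven by the keratin 14 promoter, which is active in basal keratinocytes and in the cells that descend from them. Whether the controls carried the floxed alleles or the transgene, and which *Rora* exons were floxed, is not given in the sources used here. The epidermis was peeled from back skin after a brief heat treatment. Each library therefore holds whatever parts of the interfollicular epidermis, hair follicle and sebaceous gland came away.

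Retinol enters cells by membrane receptors or is made inside them from carotenoids, is esterified for storage, and is oxidized in sequence to retinal and to retinoic acid. Retinoic acid bound to its nuclear receptors alters keratinocyte differentiation, and CYP26 enzymes break it down. ISX is a homeobox repressor known from the intestine, where retinoic acid induces it and where it lowers the scavenger receptor gene *Scarb1* and the carotenoid cleavage gene *Bco1*, closing a feedback loop on vitamin A uptake.

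Library totals ran from 17286903 to 26705533 counts. Levels are given as counts per 1000000 counts (CPM) after scaling by TMM factors, which correct library totals for composition, and 3 counts, the floor used here, corresponded to between 0.112 and 0.196 CPM. Floors cover counting error only. A gene is called changed where the edgeR quasi-likelihood test gave an adjusted p (Benjamini-Hochberg, over all 13147 genes tested) below 0.05 and a fold change above 1.5. *Rora* itself stood at 211 ± 66.5 CPM in control and 196 ± 34.6 CPM in RoraEKO libraries (SD, n = 4 each, adjusted p = 0.877). These counts do not tell the genotypes apart, and the genotypes are taken from the labels. The paper reported lower RNA of clock genes, among them known direct RORα targets, in RoraEKO epidermis. Control libraries C1 and C6 held *Xist* at 415 and 527 CPM, and the other 6 libraries held at most 0.0546 CPM. The Y-linked gene *Ddx3y* was at 0 in C1 and C6 and at 15.7 to 24.1 CPM in the other 6. This is the pattern of 2 female control libraries beside male libraries only in the RoraEKO group, so genotype and sex overlap in part, and calls that change without C1 and C6 are named where they occur. Libraries are named by the start of their sample titles. The controls of letter C are C1 and C6 alone, so within that letter genotype and sex overlap fully. The labels do not say what the letters A, B and C mark, nor that samples came from separate litters. The paper calls the postnatal day 4 controls of its skin sections littermates, without saying which sequenced samples shared a litter. The p-values therefore measure the spread between these samples. Each library is a bulk sample, in which fewer cells of a type and less RNA per cell cannot be told apart.

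*Isx* (ENSMUSG00000031621, chromosome 8, 75599756 to 75620134, plus strand, GRCm39) had 0 counts in all 4 control libraries. It had 29 counts in RoraEKO A3, 214 in B4, 217 in C2 and 134 in C3, a total of 594. These are levels of 1.89, 8.78, 10.4 and 6.68 CPM, with a mean of 6.95 ± 3.71 CPM (SD, n = 4). The genotypes did not overlap, and A3 was the lowest of the RoraEKO libraries by a wide margin. Against the mean level of 3 counts in the control libraries (0.133 CPM), *Isx* was at least 52.2-fold higher in RoraEKO epidermis. This lower bound was 50.8 with scaling by library size alone and 53.3 with RLE scaling. With 1 library left out it ran from 45.7 (without RoraEKO C2) to 67.3 (without RoraEKO A3). No other annotated gene overlaps *Isx*. None of the 4 tested genes around it was called by the quasi-likelihood test or DESeq2, and none had an unadjusted p below 0.05. Of the 8 annotated genes with a start within 250 kb, the tested ones were *Hmgxb4* (log2 fold change 0.25, adjusted p = 0.401), *Tom1* (0.22, 0.669), *Hmox1* (0.14, 0.943) and *Mcm5* (-0.03, 0.981). The other 4, *Gm11033*, *Gm45822*, *Gm45820* and *Gm2059*, had at most 4 counts in any library.

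*Isx* is best known from enterocytes, so the enterocyte markers *Vil1*, *Cdx1*, *Cdx2*, *Fabp2*, *Alpi*, *Lct*, *Sis*, *Cdh17* and *Apoa4* were examined beside it. None of the 9 had enough counts to be tested. Their summed level was 0.228 to 0.9 CPM in control and 0.326 to 1.15 CPM in RoraEKO libraries. *Cdx2* and *Sis* had 0 counts in all 8 libraries, and 7 of the 9 markers were at or under 3 counts in every library. *Apoa4* had 13 counts in RoraEKO B4 and at most 1 elsewhere, and *Lct* had 3 to 22 counts with the highest in control C6. The summed marker level lay within the control range in RoraEKO A3, C2 and C3 and above it in B4 (1.15 CPM). The part of such cells in the *Isx* counts was not tested.

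By Pearson correlation of log2 CPM over the 8 libraries, the 5 tested genes most like *Isx* were *Adcy3* (r = 0.99), *Krtap13*, *Gm19510*, *Lce1f* and *Krtap13-21* (r = 0.99 each), each lower in every control library than in any RoraEKO library and lowest among the RoraEKO libraries in A3. *Krtap13*, a keratin-associated protein gene, had 0 counts in every control library and stood at 21.3, 84.7, 65.0 and 43.9 CPM in A3, B4, C2 and C3. *Lce1f*, a late cornified envelope gene, stood at 150.2 ± 16.95 CPM in control and 733 ± 218 CPM in RoraEKO libraries. Among the other tested members the correlation with *Isx* was 0.90 for *Dhrs9*, 0.18 for *Scarb1*, -0.10 for *Aldh1a3*, -0.67 for *Crabp2*, -0.72 for *Cyp26b1* and -0.82 for *Rdh10*. These values describe 8 libraries of 2 genotypes that also share their preparation, and a gene that differs between the genotypes has a high value for that reason alone.

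RefSeq promoter sequences of GRCm39, from 250 bases before to 50 bases after the transcription start, were matched for 5 of the 9 genes (*Isx*, *Dhrs9*, *Cyp26b1*, *Lrat* and *Aldh1a1*). The promoters of *Isx*, *Dhrs9* and *Cyp26b1* are shown because these 3 genes had the largest differences between genotypes. ROR receptors bind the hexamer AGGTCA preceded by bases rich in A and T, and that hexamer was searched on both strands, with any match in capitals.
*Isx*, chr8:75599552-75599851, plus strand: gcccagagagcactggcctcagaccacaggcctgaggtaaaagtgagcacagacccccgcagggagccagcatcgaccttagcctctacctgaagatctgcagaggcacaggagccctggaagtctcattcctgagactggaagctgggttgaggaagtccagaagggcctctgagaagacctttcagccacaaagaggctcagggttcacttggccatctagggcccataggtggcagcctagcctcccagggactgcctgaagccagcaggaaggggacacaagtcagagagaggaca
*Dhrs9*, chr2:69210556-69210855, plus strand: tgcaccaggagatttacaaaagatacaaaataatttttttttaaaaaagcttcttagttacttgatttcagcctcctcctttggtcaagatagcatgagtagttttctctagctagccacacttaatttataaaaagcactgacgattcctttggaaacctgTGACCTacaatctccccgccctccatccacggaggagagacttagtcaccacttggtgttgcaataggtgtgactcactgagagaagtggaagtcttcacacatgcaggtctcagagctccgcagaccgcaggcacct
*Cyp26b1*, chr6:84570743-84571042, minus strand: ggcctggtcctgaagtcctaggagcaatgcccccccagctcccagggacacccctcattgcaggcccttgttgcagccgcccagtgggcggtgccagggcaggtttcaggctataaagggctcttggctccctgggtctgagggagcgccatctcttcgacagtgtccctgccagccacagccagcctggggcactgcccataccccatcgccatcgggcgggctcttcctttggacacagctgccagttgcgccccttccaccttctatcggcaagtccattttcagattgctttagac
The *Dhrs9* window held 1 match on the opposite strand (TGACCT, from base 163 of the 300), which also reads TAGGTCA, and the windows of the other 4 genes held none. AGGTCA occurs in 16.3% of the 32851 RefSeq promoters of this length, and the longer TAGGTCA, which contains it, in 2.61%. The start used for *Cyp26b1* lies 4827 bases from that of the canonical GENCODE transcript, against 1 base for *Isx* and 30 bases for *Dhrs9*. A match describes the letters in these windows only.

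**Figure D1:**
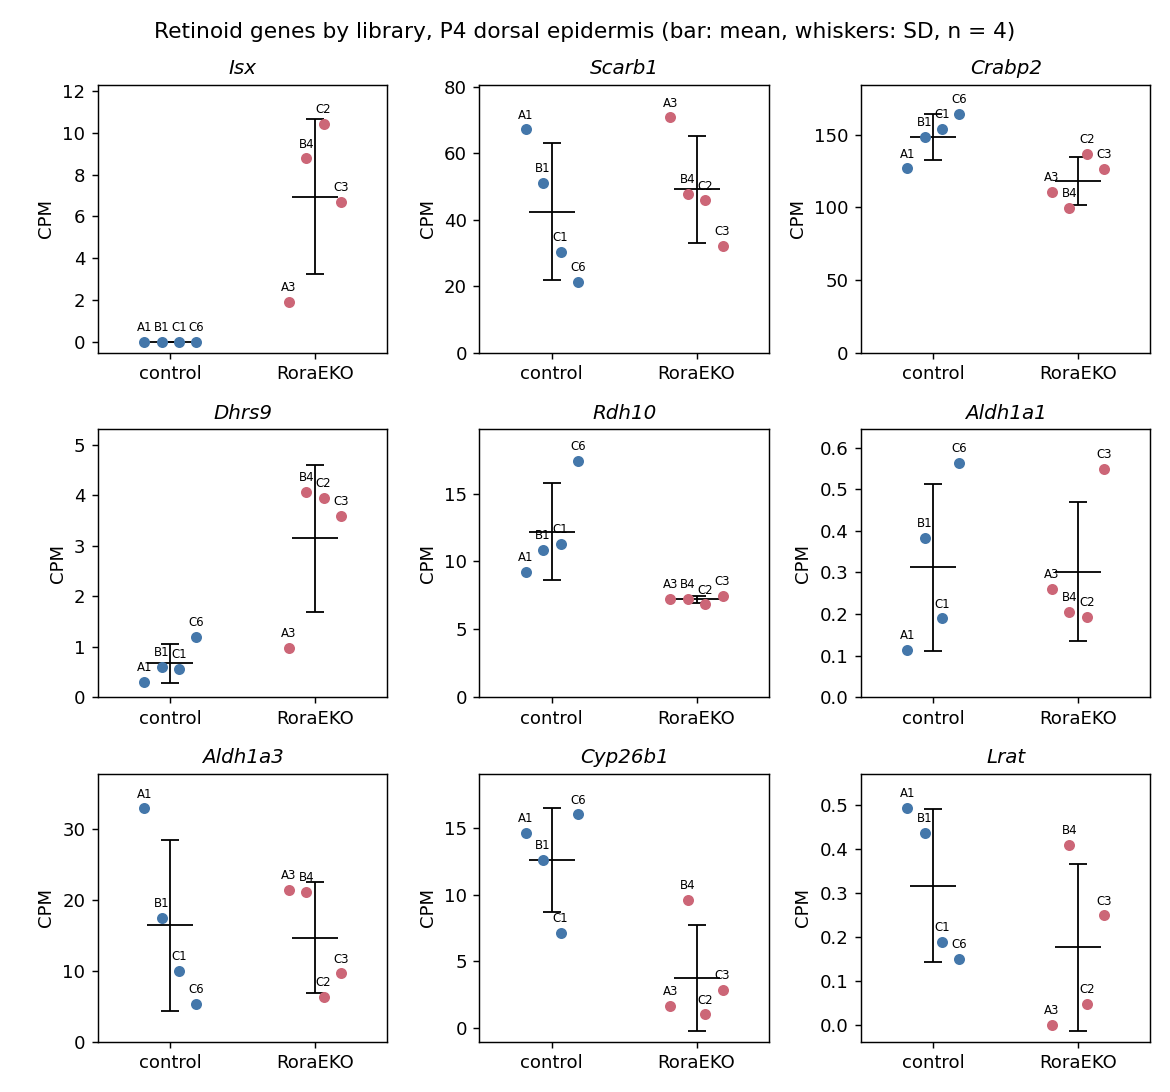
Level of each of the 9 genes in CPM (linear vertical axes from 0), with 1 point per library, control in blue and RoraEKO in red, a bar at the mean and whiskers of 1 SD (n = 4). *Isx* was at 0 in every control library and between 1.89 and 10.4 CPM in RoraEKO libraries, *Rdh10* also did not overlap between genotypes, and in *Cyp26b1* only RoraEKO B4 reached into the control range.

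*Scarb1*, the scavenger receptor that takes up carotenoids and lipids and a gene that ISX represses in the intestine, did not differ between the genotypes beyond the spread. It stood at 67.1, 51.0, 30.3 and 21.3 CPM in control A1, B1, C1 and C6, and at 70.7, 47.8, 45.8 and 32.1 CPM in RoraEKO A3, B4, C2 and C3. In control the A and B libraries were high and the C libraries low, and in RoraEKO A3 was highest and C3 lowest, with B4 and C2 close together. The means were 42.4 ± 20.7 and 49.1 ± 16.0 CPM (log2 fold change 0.21, SE 0.438, adjusted p = 0.846), and the log2 fold change ran from -0.31 with the *Xist* level as a covariate to 0.52 without control A1. Within sample title letters the log2 difference was 0.07 for A, -0.09 for B and 0.59 for C. *Scarb1* (chromosome 5, 125353547 to 125418176, minus strand) overlaps 6 annotated genes, with which reads could be shared. *Bco1*, the second intestinal gene under ISX, stood at 5.685 ± 1.62 CPM in control and 3.48 ± 0.381 CPM in RoraEKO libraries and was not called (log2 fold change -0.71, SE 0.239, adjusted p = 0.131). Without control C1 it was called lower.

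The levels of *Scarb1*, *Aldh1a3* and *Stra6*, the retinol receptor gene, were set beside the summed level of 6 hair matrix and shaft markers (*Krt31*, *Krt33b*, *Krt35*, *Krt85*, *Msx2* and *Krt71*). That sum was 21100, 9870, 3260 and 2690 CPM in control A1, B1, C1 and C6, and 14800, 12100, 5330 and 5990 CPM in RoraEKO A3, B4, C2 and C3. None of the 6 markers was called by the quasi-likelihood test or DESeq2, none had an unadjusted p below 0.05, and the ranges of the genotypes overlapped. *Stra6* was 92.7, 39.4, 29.9 and 11.6 CPM in the same control libraries and 63.6, 42.7, 13.1 and 27.7 CPM in the RoraEKO libraries (log2 fold change -0.24, adjusted p = 0.907). The summed levels of 3 adipocyte and 3 neutrophil markers were also higher in the A and B libraries than in the C libraries of the same genotype. In each of these lists only 1 of the 3 markers had enough counts to be tested. Among the adipocyte markers 1 was at or under 3 counts in every library. Adipocyte markers summed to 299, 109, 69.4 and 59.1 CPM in the control libraries and to 159, 140, 89.8 and 126 CPM in the RoraEKO libraries. Neutrophil markers summed to 15.4, 12.2, 3.45 and 3.26 CPM and to 12.1, 10.1, 7.85 and 7.93 CPM. The part of hair or of these cell types in the 3 genes was not tested.

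**Figure D2:**
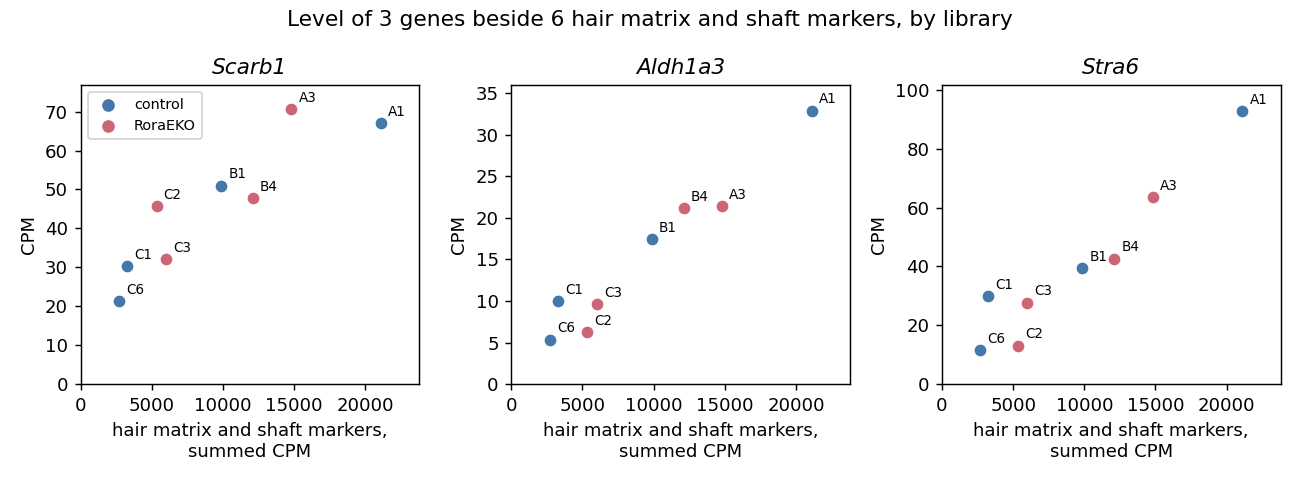
CPM of *Scarb1*, *Aldh1a3* and *Stra6* (vertical axes, linear from 0) against the summed CPM of 6 hair matrix and shaft markers (horizontal axes), 1 point per library, control in blue and RoraEKO in red. In both genotypes the A and B libraries hold more of the markers (9870 CPM and above) and more of the 3 genes than the C libraries do (5990 CPM and below).

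*Crabp2*, which carries retinoic acid to its nuclear receptors, was by far the most abundant of the 9. Its levels were 127, 148.5, 154 and 164 CPM in control and 110.5, 99.8, 137 and 127 CPM in RoraEKO libraries. The means were 148.5 ± 15.8 and 118 ± 16.45 CPM (log2 fold change -0.33, SE 0.129, adjusted p = 0.248), and the gene was not called under any of the 19 alternatives. RoraEKO C2 lay above control A1, so the genotypes overlapped. *Crabp2* lies on chromosome 3 at 87855973 to 87860683, plus strand.

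Other binding proteins differed more, and in opposite directions. *Rbp2*, the cellular retinol-binding protein first known from the small intestine, stood at 114, 133.5, 133 and 126 CPM in control and at 238, 271, 248 and 228 CPM in RoraEKO libraries. It rose from 127 ± 8.98 to 246 ± 18.4 CPM (log2 fold change 0.96, SE 0.0745, adjusted p = 0.00157), the genotypes lay far apart, and the call held in 19 of 19 alternatives. *Rbp7*, another retinol-binding protein, stood at 7.95, 9.50, 17.2 and 8.10 CPM in control and at 3.06, 3.08, 3.37 and 3.54 CPM in RoraEKO libraries. It fell from 10.7 ± 4.41 to 3.26 ± 0.233 CPM (log2 fold change -1.71, SE 0.264, adjusted p = 0.00519) and was called in 19 of 19 alternatives. *Fabp5*, an abundant fatty acid-binding protein that can carry retinoic acid to PPARD, did not overlap between genotypes at 1672 ± 233.5 and 3367 ± 1589 CPM but was not called (log2 fold change 1.01, SE 0.315, adjusted p = 0.0957). It was called higher by DESeq2, by the likelihood ratio test and with the title letter as a block.

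*Lrat*, which esterifies retinol for storage, was near the floor. It had 13, 8, 4 and 4 counts in control and 0, 10, 1 and 5 counts in RoraEKO libraries, or 0.318 ± 0.173 and 0.177 ± 0.189 CPM, and did not pass the filter for testing. A difference was not detectable at this depth. Of the 6 other genes of retinyl ester synthesis and hydrolysis, 4 were tested, none was called by the quasi-likelihood test or DESeq2, and none had an unadjusted p below 0.05. *Lipe*, a hydrolase of stored lipid, was the highest of them at 9.86 CPM per kilobase in control libraries (log2 fold change 0.47, adjusted p = 0.577). *Lrat* lies on chromosome 3 at 82799886 to 82811288, minus strand.

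*Dhrs9* and *Rdh10* encode dehydrogenases of the step from retinol to retinal, and the quasi-likelihood test called *Dhrs9* but not *Rdh10*. *Dhrs9* (chromosome 2, 69210776 to 69234877, plus strand) had 8, 11, 12 and 32 counts in control and 15, 99, 82 and 72 counts in RoraEKO libraries. As levels these were 0.304, 0.600, 0.567 and 1.2 CPM against 0.978, 4.06, 3.95 and 3.59 CPM. RoraEKO B4, C2 and C3 lay above every control library, whereas A3 lay below control C6, so the genotypes overlapped. *Dhrs9* rose from 0.668 ± 0.379 to 3.145 ± 1.46 CPM (log2 fold change 2.23, SE 0.588, adjusted p = 0.0356). The difference was positive within each title letter, at 1.43 for A, 2.58 for B and 2.06 for C on the log2 scale. Within letter C, genotype and sex cannot be told apart. The call was close to the cutoff. It held in 2 of the 8 fits that left out 1 library, those without RoraEKO A3 and without control C6, and was lost without control A1, B1 or C1 or RoraEKO B4, C2 or C3. It was also lost with the *Xist* level as a covariate (adjusted p = 0.0542) and without control C1 and C6 together (0.0763), while the log2 fold change stayed between 1.97 and 2.88 in all 18 alternatives that could test it.

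*Rdh10*, the retinol dehydrogenase that limits retinoic acid synthesis in the embryo, was lower in every RoraEKO library than in any control library but was not called. Its levels were 9.24, 10.9, 11.3 and 17.4 CPM in control and 7.24, 7.27, 6.83 and 7.48 CPM in RoraEKO libraries. The means were 12.2 ± 3.58 and 7.20 ± 0.270 CPM (log2 fold change -0.76, SE 0.196, adjusted p = 0.0531), with a narrow RoraEKO group and a control group spread upward by C6. It was called lower in 4 of 19 alternatives, by DESeq2 (0.0231), by the likelihood ratio test (0.0185), with the title letter as a block (0.0420) and without control A1 (0.0214). With the *Xist* level as a covariate the log2 fold change was -0.46 (adjusted p = 0.251). Without control C1 and C6 together it was -0.43 (adjusted p = 0.264). *Rdh10* lies on chromosome 1 at 16175555 to 16203958, plus strand.

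Of the 12 other genes of retinol oxidation, 8 were tested, of which 1 was called higher and none lower, beside 2.3% and 3.22% of all tested genes. *Rdh16* stood at 1.48, 0.873, 1.51 and 1.35 CPM in control and at 4.56, 3.12, 7.85 and 7.13 CPM in RoraEKO libraries. It rose from 1.305 ± 0.296 to 5.665 ± 2.21 CPM (log2 fold change 2.11, SE 0.347, adjusted p = 0.00568), without overlap and in 19 of 19 alternatives. *Rdh16* belongs to a cluster of close paralogs and overlaps the pseudogene *Rdh18-ps* on the same strand, so its counts may include reads of its neighbours. *Adh7*, an alcohol dehydrogenase that oxidizes retinol, stood at 4.53 ± 1.53 and 9.43 ± 3.41 CPM and was not called (log2 fold change 1.06, adjusted p = 0.0827), although its genotypes did not overlap. DESeq2, the likelihood ratio test and the letter block called it higher. *Sdr16c5*, the highest of the group at 146 CPM per kilobase in control libraries, was not called (log2 fold change -0.33, adjusted p = 0.543). In the reverse step, none of the 6 tested genes of retinal reduction was called by the quasi-likelihood test or DESeq2, and 1 (*Rdh11*) had an unadjusted p below 0.05. The highest, *Rdh12*, had a log2 fold change of 0.09 (adjusted p = 0.826).

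**Figure D3:**
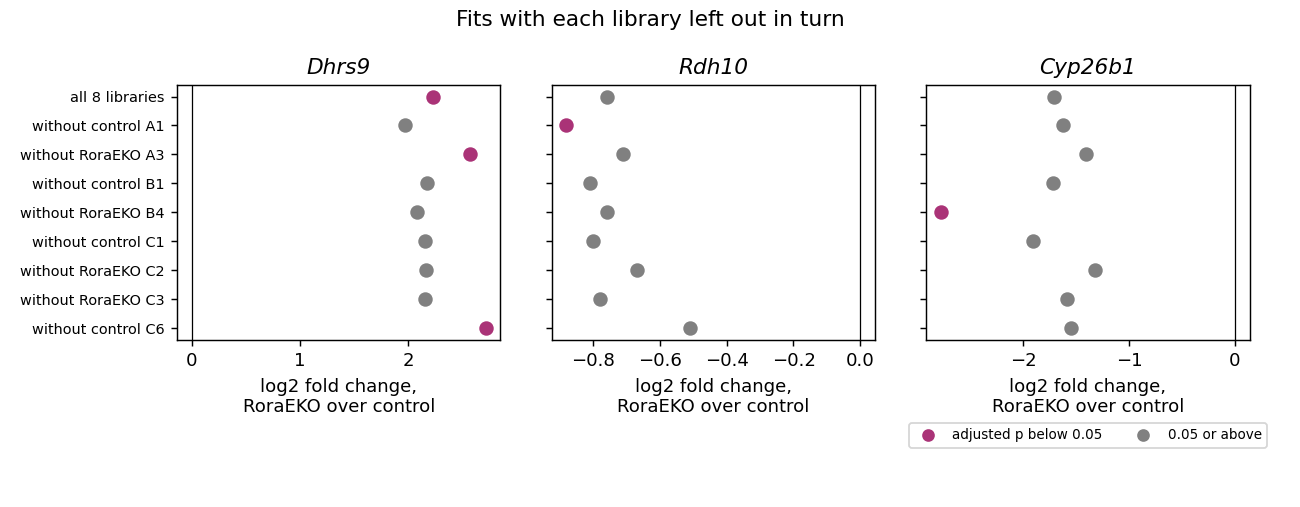
Log2 fold change of RoraEKO over control (horizontal axes, linear, separate scales) for *Dhrs9*, *Rdh10* and *Cyp26b1* in the fit of all 8 libraries and in the 8 fits that leave out 1 library each, with purple points where the adjusted p was below 0.05 and grey points elsewhere. All points keep their side of 0, *Dhrs9* is purple with all libraries and without RoraEKO A3 or control C6, and *Cyp26b1* moves to -2.78 without RoraEKO B4.

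Of the 5 aldehyde dehydrogenase genes listed here under the step from retinal to retinoic acid, 2 (*Aldh1a3* and *Aldh1a7*) could be tested, and neither was called. *Aldh1a3* (chromosome 7, 66040638 to 66077850, minus strand) stood at 32.9, 17.5, 10.02 and 5.36 CPM in control and at 21.4, 21.1, 6.31 and 9.63 CPM in RoraEKO libraries. The means were 16.4 ± 12.1 and 14.6 ± 7.81 CPM (log2 fold change -0.17, SE 0.704, adjusted p = 0.931). The A and B libraries were high in both genotypes. The sign of its fold change turned between alternatives, from -0.84 with the *Xist* level as a covariate to 0.42 without control A1. *Aldh1a1* (chromosome 19, 20469539 to 20622825) had 3, 7, 4 and 15 counts in control and 4, 5, 4 and 11 counts in RoraEKO libraries. That is 0.312 ± 0.202 and 0.302 ± 0.167 CPM, too low for testing. Of the 3 other genes listed under this step, the 1 tested, *Aldh1a7*, was not called (log2 fold change 0.08, adjusted p = 0.915). Whether *Aldh1a7* acts on retinal was not examined.

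*Cyp26b1*, which degrades retinoic acid and is a known target of it, was low in 3 of 4 RoraEKO libraries. It stood at 14.6, 12.6, 7.14 and 16.05 CPM in control and at 1.63, 9.65, 1.01 and 2.84 CPM in RoraEKO libraries. RoraEKO A3, C2 and C3 lay below every control library, whereas B4 lay above control C1. The means were 12.6 ± 3.91 and 3.78 ± 3.98 CPM, and the gene was not called (log2 fold change -1.71, SE 0.727, adjusted p = 0.155). Without B4 the log2 fold change was -2.78 (adjusted p = 0.00772), and the gene was also called lower by DESeq2 (0.0375) and with the title letter as a block (-2.11, 0.0411), 3 of 19 alternatives in all. Within letters the log2 difference was -3.10 for A, -0.38 for B and -2.59 for C. B4 also had the highest summed level of 5 basal keratinocyte markers (1190 CPM, against 245 to 591 CPM in control and 267 to 376 CPM in the other RoraEKO libraries), and the part of this in the *Cyp26b1* level was not tested. Of the other CYP26 genes, *Cyp26a1* had 1 count in 1 library and *Cyp26c1* had none. *Cyp26b1* (chromosome 6, 84548396 to 84570890, minus strand) overlaps no other annotated gene.

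None of the 6 tested retinoid receptor genes was called by the quasi-likelihood test or DESeq2, and 1 (*Rara*) had an unadjusted p below 0.05. *Rarg*, the main retinoic acid receptor gene of epidermis, was at 35.35 CPM per kilobase in control libraries, close to *Rxra* at 34.7 with overlapping ranges. *Rarg* stood at 164 ± 19.9 and 168 ± 12.1 CPM (log2 fold change 0.04, adjusted p = 0.926). *Rara* did not overlap between genotypes at 20.1 ± 2.97 and 13.7 ± 2.59 CPM but was not called (log2 fold change -0.55, adjusted p = 0.104). Of 10 genes known to respond to retinoic acid in other settings, 6 were tested and 1 was called, lower, beside 5.51% of all tested genes called and 3.22% called lower. *Rarres1*, a retinoic acid receptor responder, stood at 39.4, 42.4, 36.0 and 61.3 CPM in control and at 16.6, 9.56, 24.8 and 22.0 CPM in RoraEKO libraries. It fell from 44.8 ± 11.3 to 18.2 ± 6.73 CPM without overlap (log2 fold change -1.30, SE 0.348, adjusted p = 0.0280). The call held in 13 of 19 alternatives and was lost without RoraEKO A3, RoraEKO C3, control B1 or control C6, with the *Xist* level as a covariate, and without control C1 and C6 together. Its log2 fold change stayed between -1.42 and -1.08 in all 19.

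**Figure D4:**
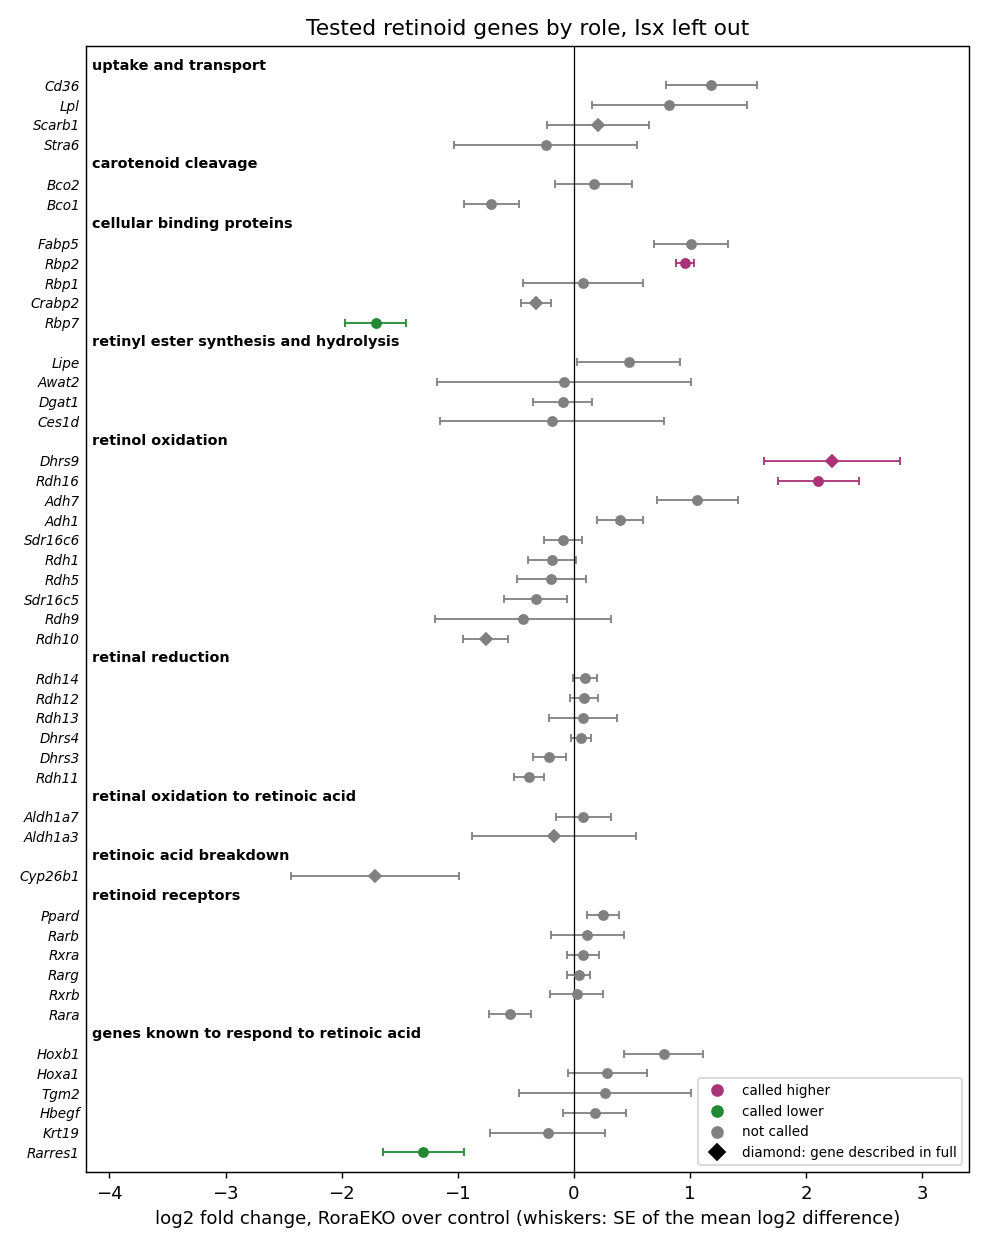
Log2 fold change of RoraEKO over control (horizontal axis, linear) with whiskers of 1 standard error for the 46 tested retinoid genes other than *Isx*, grouped by role, diamonds marking the genes of the set described here. *Dhrs9*, *Rdh16* and *Rbp2* were called higher (purple), *Rbp7* and *Rarres1* were called lower (green), and most others lie within 1 log2 unit of 0.

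Leaving *Isx* aside, 6 of the other 8 members passed the filter, 1 was called higher (*Dhrs9*), 0 were called lower and 5 were not called by the edgeR quasi-likelihood test, where 5.51% of all tested genes were called, 2.3% higher and 3.22% lower. DESeq2 and the quasi-likelihood fit with the title letter as a block each called 2 of the 6 lower (*Rdh10* and *Cyp26b1*), and the likelihood ratio test called *Rdh10*, where these called 4.21%, 4.4% and 4.38% of all tested genes lower in the same order. A negative fold change with an unadjusted p below 0.05 in the quasi-likelihood test was found in 3 of the 6 (those and *Crabp2*), beside 10.3% of all tested genes. The median log2 fold change of all 6 was -0.249, beside -0.0429 over all tested genes. The genotypes did not overlap in 1 of the 6 (*Rdh10*), beside 12.9% of all tested genes. In the 62 further retinoid genes, 40 were tested, 2 were called higher, 2 lower and 36 not, with a median log2 fold change of 0.0786 and no overlap between genotypes in 7. These lists were written with results of these data known, and their counts are a description.

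Compared per kilobase of merged exons (RPKM), the control levels of the members ran in the order *Crabp2* (112 ± 12.0), *Scarb1* (4.10 ± 1.996), *Aldh1a3* (2.89 ± 2.12), *Rdh10* (2.65 ± 0.777), *Cyp26b1* (2.21 ± 0.686), *Dhrs9* (0.156 ± 0.0882), *Lrat* (0.0593 ± 0.0323), *Aldh1a1* (0.0290 ± 0.0188) and *Isx* at 0. *Scarb1*, *Aldh1a3*, *Rdh10* and *Cyp26b1* overlapped with their neighbours in this order, as did *Dhrs9*, *Lrat* and *Aldh1a1*. *Crabp2* stood clear of *Scarb1*, and *Cyp26b1* stood clear of *Dhrs9*. The level that 3 counts of *Isx* would give lies within or above the range of *Lrat* and *Aldh1a1*, so its place below them was not detectable at this depth. In RoraEKO libraries *Isx* reached 3.78 ± 2.02 CPM per kilobase. The levels depend on the length used. With the length of the longest transcript in place of the merged exons, the control mean of *Scarb1* moved from 4.10 to 13.5, that of *Crabp2* from 112 to 160 and that of *Aldh1a1* from 0.0290 to 0.0503, and the order of the control means was the same.

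**Figure D5:**
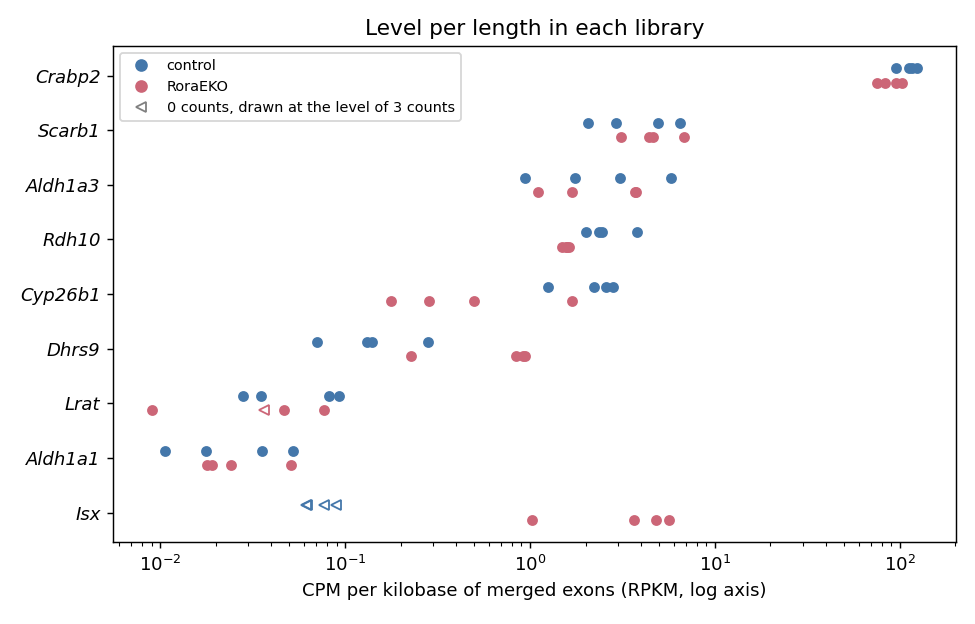
CPM per kilobase of merged exons (RPKM, horizontal log axis) of the 9 genes in each library, ordered by the control mean, control in blue and RoraEKO in red, with open triangles for libraries with 0 counts drawn at the level of 3 counts. *Crabp2* lies above 75 in every library, *Isx* moves from open triangles in control to between 1.03 and 5.68 in RoraEKO libraries, and *Lrat* and *Aldh1a1* lie below 0.1.

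Markers of the epidermal layers and of other cell types were read in the same libraries. The summed level of 4 spinous keratinocyte markers ran from 37600 to 64500 CPM in control and from 79600 to 100000 CPM in RoraEKO libraries, without overlap. None of the 4 was called by the quasi-likelihood test, 1 (*Krt10*) had an unadjusted p below 0.05, the likelihood ratio test called *Krt10*, and DESeq2 called *Krt1* and *Krt10*. The 4 granular markers overlapped at 7640 to 10500 and 6600 to 10400 CPM. The 5 basal markers, *Krt5* and *Krt14* among them, summed to 245 to 591 CPM in control and 267 to 1190 CPM in RoraEKO libraries. Of these 1 (*Krt15*) was lower at an unadjusted p below 0.05 and none was called. The basal sum lay far below the spinous sum in every library, and how fully the basal layer is represented was not tested. Dermal fibroblast markers summed to at most 10.3 CPM and dermal papilla markers to at most 0.529 CPM in any library. Sebocyte markers summed to 100 to 364 CPM in control and 74.6 to 173 CPM in RoraEKO libraries, and none of the 5 had an unadjusted p below 0.05. Erythroid markers summed to 31.7 to 215 CPM in control and 83.4 to 665 CPM in RoraEKO libraries, with 2 of 3 (*Hba-a1* and *Hbb-bs*) higher at an unadjusted p below 0.05. Melanocyte markers summed to 23.8 to 54.0 and 16.4 to 32.2 CPM, with 2 of 4 (*Dct* and *Pmel*) lower at an unadjusted p below 0.05, and neither list had a gene called by the quasi-likelihood test or DESeq2. The part of these levels in the retinoid genes was not tested.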

How the data were processed

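Per the labels, epidermis of postnatal day 4 mice was sequenced in 8 libraries, 4 per genotype, and the study's methods give the back skin as its source. Per the submitters' processing notes and the methods, the authors used bcl2fastq 2.20.0.422 and Skewer, aligned the trimmed pairs against GRCm39 by STAR 2.5.3a and deposited RSEM expected counts per gene, not normalized. The annotation release and the strand setting of the counting are not given in the sources used here. Expected counts were rounded to whole numbers. Symbols and coordinates came from GENCODE mouse release 39 (54749 of 55416 identifiers found), promoters from RefSeq.

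Genes passing filterByExpr (13147) were scaled by TMM and compared in edgeR 4.0.16 (R 4.3.3) by its legacy quasi-likelihood test without covariates. Calls needed an adjusted p (Benjamini-Hochberg) below 0.05 and a fold above 1.5. The standard error (SE) refers to the genotypes' difference in mean log2 CPM, at a prior count of 2. Named genes were all 9 members, *Rora*, every called gene and the highest gene per role (control RPKM) of a list of 71 retinoid genes, genes with a start within 250 kb of *Isx*, and the 5 genes most correlated with *Isx*. *Adh7*, *Cd36*, *Rara*, *Rxra*, *Rdh11*, *Aldh1a7*, *Cyp26a1*, *Cyp26c1*, *Ttr* and *Rbp4* fall outside this rule and were chosen after their values were seen, as was the choice to plot the hair markers. The members and lists were chosen with earlier results of these data known. Alternatives were DESeq2 1.42.0, the edgeR likelihood ratio, non-legacy and robust tests, scaling by RLE or by library size, other filters, the title letter as a block, the *Xist* level as a covariate, each library left out in turn and, chosen after seeing the data, control C1 and C6 left out together. The scripts were tested on simulated data. Plots were drawn with matplotlib 3.10.9.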

Additional observations from a re-analysis of the deposited data

Results flagged for a closer look

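Both genotypes of 13 genes were examined for a library far from the other 3 of its group, 26 groups in all, and 2 stood apart, where chance alone marks about 1 group in 20. RoraEKO A3 held *Dhrs9* at 0.978 CPM, while the other 3 RoraEKO libraries held it at 3.59 to 4.06 CPM. Control C1 held *Rbp7* at 17.2 CPM, while the other 3 control libraries held it at 7.95 to 9.50 CPM.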

How the results depend on the processing

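The fold changes of *Dhrs9*, *Rbp2*, *Rbp7*, *Rdh16* and *Rarres1* kept their direction in every alternative that could test them. Over all genes, 302 higher and 423 lower calls became 478 higher with DESeq2, 182 higher with the *Xist* level as a covariate, and 147 higher and 167 lower without control C1 and C6. Leaving out 1 library gave 174 to 383 higher and 283 to 513 lower calls. Members other than *Isx* called higher numbered 1 (*Dhrs9*), and 0 with the filter of 10 counts in every sample, which removed *Dhrs9*, with the *Xist* covariate and without C1 and C6, and 0 to 1 with 1 library left out. Members called lower numbered 0 in the quasi-likelihood test with all libraries and no block, 2 with DESeq2 and with the title letter as a block (*Rdh10* and *Cyp26b1*), 1 with the likelihood ratio test, and 0 to 1 with 1 library left out. Of the other retinoid genes 2 were called higher, and 5 with DESeq2 (also *Fabp5*, *Adh7* and *Cd36*) and 4 with the likelihood ratio test or the letter block (also *Fabp5* and *Adh7*), and 2 to 3 with 1 library left out. The lower calls numbered 2, 1 with the *Xist* covariate or without C1 and C6, and 1 to 3 with 1 library left out. The labels give the genotypes no shared replicate numbers. The letter of the sample title, which both genotypes share and whose meaning the labels do not give, was used as a block instead, with 420 higher and 579 lower calls over all genes. Apart from the 10-count filter and the fits with fewer libraries, the cause of these differences was not tested. Depth limited *Lrat*, *Aldh1a1* and the control level of *Isx*.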

Other observations

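*Ttr* and *Rbp4*, the serum carriers of retinol made mainly by liver, were too low to be tested, but control C6 held 80 counts of *Ttr* and 15 of *Rbp4*. The other 7 libraries held at most 13 and at most 1.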
